A study of Mus musculus with 6 samples.

Results

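Salt-inducible kinases (SIKs) and the transcriptional coactivators they hold in check were followed in the prefrontal cortex (PFC) of mice after early life stress (ELS). The genes are the 9 that code for the 3 SIK kinases (Sik1, Sik2, Sik3), the 3 CREB-regulated transcription coactivators (Crtc1, Crtc2, Crtc3) and the 3 factors of the CREB family (Creb1, Crem, Atf1). They were taken by symbol from the 22000 rows of the deposited count table, and all 9 were among the 13185 genes that passed the filter on low counts. The set was chosen by the small p-value of Sik1 between ELS and control mice in these libraries, and the other genes were added for their known place beside it, so every value of ELS against control in these 9 genes, counts past a threshold included, is given as a description and not as a test.

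RNA-seq was carried out on bulk PFC of male C57BL/6N mice at 9 weeks of age, from 3 control mice and 3 ELS mice with 1 library per mouse. ELS mice had been housed singly in cages with a filter cap from weaning until dissection, and control mice had been housed together without the cap. Isolation and the filter cap therefore cannot be told apart. The methods take both groups from litters of the same mothers and place behavioural tests before dissection.

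SIKs are kinases of the AMPK-related family, switched on by the upstream kinase LKB1 and switched off by protein kinase A (PKA) when cAMP rises. An active SIK phosphorylates CRTC proteins, which are then bound by 14-3-3 proteins and kept in the cytoplasm. When SIKs are inhibited, or when the calcium-activated phosphatase calcineurin removes the phosphate, CRTCs enter the nucleus and join CREB at cAMP response elements (CREs) of activity-regulated genes. Sik1 is itself such a CREB target gene and closes a negative feedback loop. Most of this regulation is by phosphorylation and location of proteins, which transcript counts do not measure.

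The CRE is the palindrome TGACGTCA, and TGACG is its core. RefSeq promoters of GRCm38.p6, from 250 bases before to 50 bases after each start, were on hand for 6 of the 9 genes; Sik1, Crtc2 and Crem had no entry in the table. No palindrome was found in the 6 promoters, against 1.79% of all 32851 promoters that hold it. The core, searched on both strands, was found in Sik3, Sik2 and Atf1 and not in Crtc1, Crtc3 or Creb1, and 20.8% of all promoters hold at least 1. Sik3 had 3 matches, a number reached by 1.03% of promoters, and Sik2 had 2, a number reached by 5.01%. The stretches with the matches are shown because they are the places in these promoters where letters of the CREB motif occur. Each is written 5′ to 3′ on the strand of its gene with the core, or its reverse complement CGTCA, in capitals.
Sik3 (chr9:46012680-46012779, plus strand, bases -140 to -41 from the start): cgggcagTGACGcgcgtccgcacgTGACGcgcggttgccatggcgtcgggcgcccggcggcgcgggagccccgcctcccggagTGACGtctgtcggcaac
Sik2 (chr9:51009052-51009081, minus strand, bases -8 to 22 across the start): ggcccccTGACGtcggctcaCGTCAgcgcc
Atf1 (chr15:100227754-100227783, plus strand, bases -105 to -76): cacgtgaccacgcggTGACGcagcacgccg
The Sik3 matches begin at bases -133, -116 and -57, those of Sik2 at -1 and 13, and that of Atf1 at -90. A match of letters is not a measured binding site, and no match within this window says nothing on CREB binding elsewhere.

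In the counts, Sik1 and Sik2 were lower in every ELS mouse than in every control mouse, whereas Sik3, the 3 coactivators and the 3 CREB factors overlapped between the groups. Levels of single genes are given as CPM, counts scaled to library size, with TMM factors. Total counts ran from 28405795 to 35241743 per mouse, with every ELS library deeper than every control library, and the 9 genes had between 245 and 6544 counts in a mouse. Each pair of libraries within a group showed differences beyond sampling noise. Neuronal, astrocyte, oligodendrocyte and microglial markers were all detected, as PFC tissue should have, and the summed level of each of these marker lists overlapped between the groups.

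Sik1, on the minus strand of chromosome 17 (GRCm38, 31844250 to 31855804), is the SIK gene that is transcribed on demand. It had 16.2, 14.3 and 13.5 CPM in control mice 1 to 3 and 11.4, 10.4 and 9.33 CPM in ELS mice 1 to 3. The groups did not overlap, and the lowest control mouse stood above the highest ELS mouse. The control mean was 14.6 ± 1.39 CPM and the ELS mean 10.4 ± 1.05 CPM (SD, n = 3 each). This made a log2 fold change of -0.50 (standard error 0.111), or 0.709 of the control level. No other annotated gene overlaps its exons. In bulk tissue, fewer cells that express a gene and less RNA per cell cannot be told apart.

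Sik2, a kinase of wide tissue distribution, lies on chromosome 9 from 50892801 to 51009073 (minus strand). It had 38.7, 38.0 and 32.6 CPM in control mice 1 to 3 and 31.8, 30.0 and 28.2 CPM in ELS mice 1 to 3. The groups did not overlap here either, although control mouse 3 lay close to ELS mouse 1. Control and ELS means were 36.4 ± 3.36 and 30.0 ± 1.77 CPM (SD, n = 3 each), which gave a log2 fold change of -0.28 (standard error 0.086). As with Sik1, control mouse 1 was the highest of the 6 mice and ELS mouse 3 the lowest. A part of the Sik2 exons, 15% of their length, overlaps Ppp2r1b on the opposite strand, and the strand setting of the counting is not given in the sources used here. Ppp2r1b had control and ELS means of 18.4 ± 1.67 and 15.9 ± 1.04 CPM (SD, n = 3 each), and its part in the Sik2 value was not tested.

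Sik3, the remaining kinase, is known for its role in sleep need and lies on chromosome 9 from 46012820 to 46224194 (plus strand). It had 126, 124 and 118 CPM in control mice 1 to 3 and 115, 120 and 118 CPM in ELS mice 1 to 3. The groups overlapped, and the highest mouse had 1.09 times the level of the lowest. For Sik1 this was 1.73 times, which includes the gap between the groups by which Sik1 was chosen. The log2 fold change was -0.06 (standard error 0.063). Its biological coefficient of variation, the spread between mice of a group that counting does not account for, was 5.97%, lower than in most genes, as 4.26% of genes tested were at or below it. For Sik1 it was 8.68% and for Sik2 7.31%, around the median of 7.57% for all genes tested. By this coefficient, the SIK gene with the most counts was also the one that varied least between mice of a group.

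**Figure D1:**
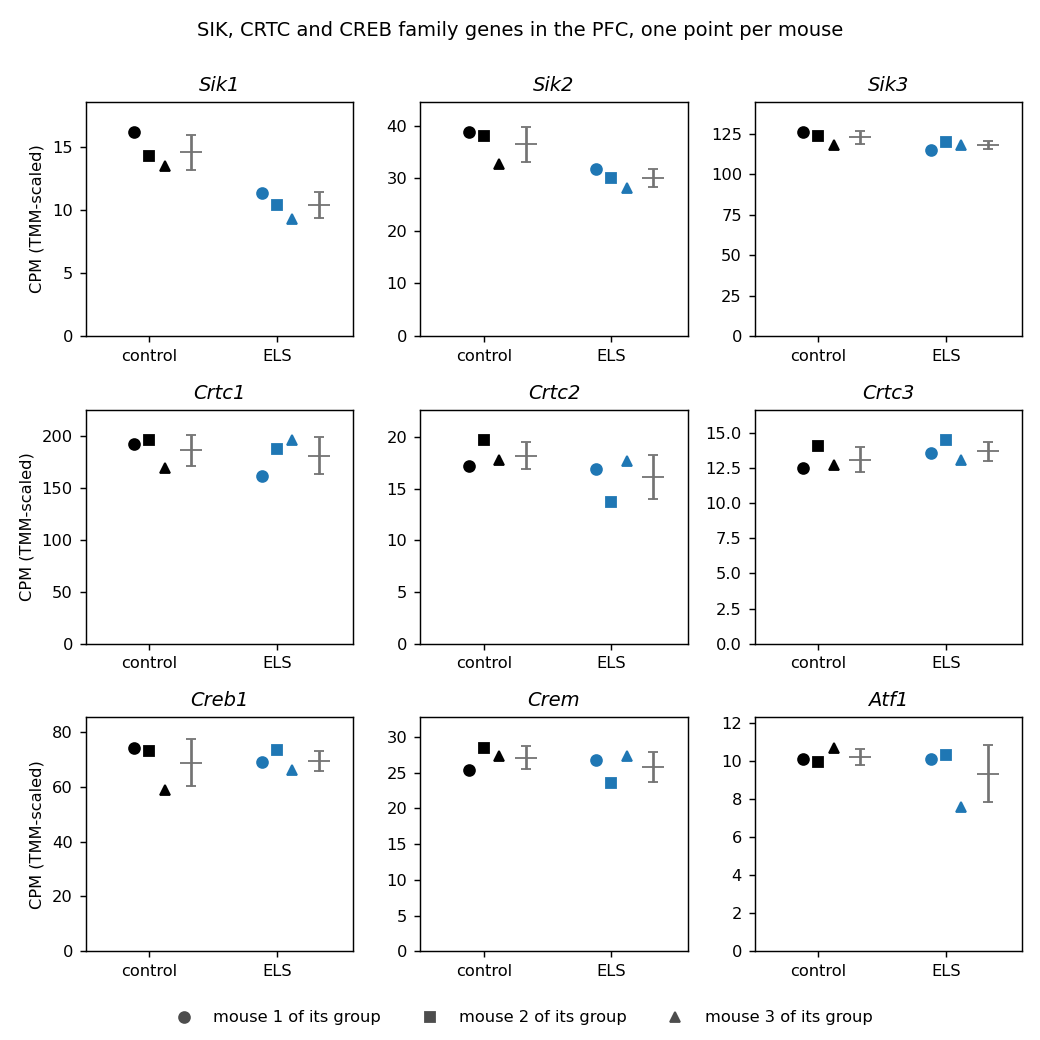
Each panel plots the TMM-scaled CPM of 1 gene, from 0, in control mice (black) and ELS mice (blue), with the marker shape giving the mouse number within its group and grey bars the mean ± SD of 3 mice. In Sik1 and Sik2 the blue points all lie below the black points, and in the other 7 genes they overlap.

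Among the coactivators, Crtc1, the form that prevails in neurons, lies on chromosome 8 from 70382355 to 70439579 (minus strand). It had 192, 196 and 169 CPM in control mice 1 to 3 and 161, 187 and 196 CPM in ELS mice 1 to 3. Control mouse 3 and ELS mouse 1 were its lowest mice, so that the spread within a group was wider than the gap between the means of 186 ± 14.7 and 181 ± 18.0 CPM (SD, n = 3 each). These same mice had the highest sum of the striatal markers Drd2, Ppp1r1b, Adora2a and Rgs9, at 219 and 201 CPM, against 121 to 149 CPM in the other 4 mice. They were also highest in the summed oligodendrocyte markers, at 6210 and 5530 CPM against 4700 to 5200 CPM, and in the summed blood markers, at 82.2 and 76.8 CPM against 48.7 to 62.4 CPM. The part of these differences in the Crtc1 level was not tested. On the log2 scale ELS mice differed from control mice by -0.04 (standard error 0.0856), and by -0.101 to 0.040 with each mouse left out in turn.

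Crtc2, on chromosome 3 from 90254163 to 90264125 (plus strand), is best known from glucose production in liver. It had 17.2, 19.7 and 17.8 CPM in control mice 1 to 3 and 16.9, 13.7 and 17.7 CPM in ELS mice 1 to 3. ELS mouse 2 stood below the others, and the groups overlapped. Its log2 fold change of -0.18 (standard error 0.107) ran from -0.255 to -0.079 with each mouse left out in turn. Crtc3, on chromosome 7 from 80586627 to 80688877 (minus strand), had 12.5, 14.1 and 12.7 CPM in control mice 1 to 3 and 13.6, 14.5 and 13.1 CPM in ELS mice 1 to 3. Its log2 fold change was 0.07 (standard error 0.0961), and 0.029 to 0.129 with each mouse left out in turn, with the groups interleaved.

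Of the CREB factors, Creb1, on chromosome 1 from 64532645 to 64604548 (plus strand), codes for the activator that binds the CRE. It had 74.2, 73.1 and 58.9 CPM in control mice 1 to 3 and 69.0, 73.3 and 65.9 CPM in ELS mice 1 to 3. The lowest mouse was a control mouse, and the log2 fold change was 0.01 (standard error 0.0894), and -0.086 to 0.073 with each mouse left out in turn. Crem, on chromosome 18, codes for activators and, from an internal promoter, for the inducible repressor ICER, which counts per gene do not separate. It had 25.4, 28.5 and 27.4 CPM in control mice 1 to 3 and 26.8, 23.5 and 27.3 CPM in ELS mice 1 to 3. The groups overlapped, with a log2 fold change of -0.07 (standard error 0.0861), and -0.115 to -0.007 with each mouse left out in turn. Gm6225, a noncoding gene, covers 8.01% of its exon length from the other strand. Atf1, on chromosome 15 from 100227819 to 100261244 (plus strand), codes for a close relative of CREB. It had 10.1, 9.95 and 10.7 CPM in control mice 1 to 3 and 10.1, 10.3 and 7.60 CPM in ELS mice 1 to 3. Only ELS mouse 3 stood below the rest, and without this mouse the log2 fold change of -0.13 (standard error 0.129) was -0.005.

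Over the 9 genes, 7 log2 fold changes were below 0 and 2 above, with a median of -0.07 against -0.005 for all genes tested. Without control mouse 1 the median of the 9 was -0.1145. In 2 of the 9, Sik1 and Sik2, all ELS mice lay under all control mice, and in 0 of the 9 did all ELS mice lie above. Of all genes tested, 4.47% showed the first pattern and 3.81% the second. A gene counted as a DEG when its adjusted p (Benjamini-Hochberg) was under 0.05 and its log2 fold change was beyond 0.3 in either direction. By this rule the quasi-likelihood test of edgeR made DEGs of 0 of the 9 genes, against 2 of all genes tested (0.0152%). Its unadjusted p was under 0.05 in ELS-lower direction for 2 of the 9, Sik1 and Sik2, against 2.34% of all genes tested, and in ELS-higher direction for 0 of the 9, against 1.89%. DESeq2 called 0 of the 9 and 0.137% of all genes, limma-voom called 0 of the 9 and 2 of all genes tested, and edgeR's likelihood ratio test called 1 of the 9, Sik1, and 0.212% of all genes. As the contrast was known when the genes were chosen, nothing is read from these counts.

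**Figure D2:**
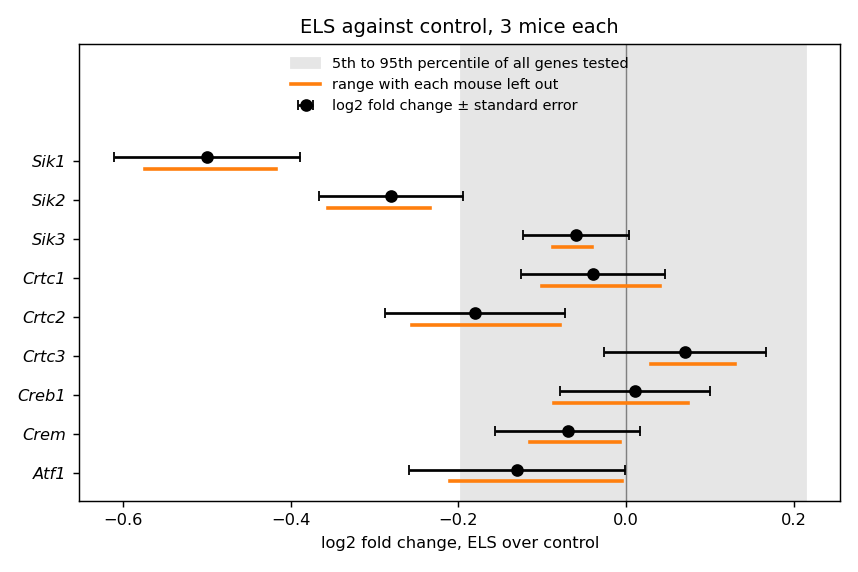
Points give the log2 fold change of ELS over control mice for each of the 9 genes, with bars of 1 standard error, orange lines give its range when each mouse was left out in turn, and the grey band spans the 5th to 95th percentile of all genes tested. The points of Sik1 (-0.50) and Sik2 (-0.28) lie outside the band and the other 7 within it.

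Levels were compared between genes only per length, as CPM per kb of the union of all annotated exons. All 6 mice were pooled, and the groups were not compared. Crtc1 stood highest at 16.4 ± 1.33 CPM per kb (SD, n = 6), followed by Sik3 at 12.9 ± 0.43 and, well below, by Creb1 at 5.03 ± 0.429, Crem at 4.49 ± 0.304 and Crtc2 at 4.20 ± 0.477 CPM per kb. Sik2 had 3.48 ± 0.447, Atf1 3.20 ± 0.363, Sik1 2.44 ± 0.503 and Crtc3 1.36 ± 0.0812 CPM per kb. The pooled spreads of Sik1 and Sik2, and of their steps to neighbours, include the gap between the groups. Sik1 had 2.63 to 3.15 CPM per kb in control mice and 1.82 to 2.23 in ELS mice. Neighbours in this order were compared within each mouse by an exact sign-flip permutation test, two-sided, with adjustment over the 8 pairs. The step from Sik3 to Creb1 was the largest, at 1.36 ± 0.11 on the log2 scale (SD, n = 6, higher in 6 of 6 mice, exact permutation test, p = 0.0312, adjusted p = 0.0417), where 0.0312 is the smallest p that 6 mice can give. Creb1 and Crem differed by 0.16 ± 0.19 (higher in 5 of 6 mice, exact permutation test, p = 0.0938, adjusted p = 0.107) and Sik2 and Atf1 by 0.12 ± 0.18 (higher in 4 of 6 mice, exact permutation test, p = 0.219, adjusted p = 0.219), so that by this length neither pair was separated beyond its spread. The other 5 pairs were ordered alike in 6 of 6 mice, each with the same p and adjusted p as the first.

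The test covers the spread between mice and not the choice of length. With the longest annotated transcript of each gene as its length, Sik3 (19.1 CPM per kb) came before Crtc1 (17.9), Crem (9.03) before Creb1 (8.26), and Sik2 (6.18) before Crtc2 (5.74). Sik2 then exceeded Atf1 by 0.58 on the log2 scale, against 0.12 by the exon union. By this length the smallest p that 6 mice can give was reached by 4 pairs and became 0.0625 after adjustment in the exact permutation test, so that no pair could pass, whatever its size. Sik1 (2.77 CPM per kb) and Crtc3 (2.62) then stood side by side. By either length Crtc1 and Sik3 were the highest of the 9, and Sik1 and Crtc3 the lowest. Within the kinases, and again by the exon union, Sik3 made up 65.2 to 72.6% of the summed SIK level per kb in the 6 mice, Sik2 16.9 to 19.8% and Sik1 10.4 to 15.2%. The share of Sik1 was 13.8 to 15.2% in control mice and 10.4 to 12.4% in ELS mice, the same lower level of Sik1 seen as a share. Crtc1 made up 72.4 to 77.6% of the coactivator sum. The CREB family was more even, with Creb1 at 34.5 to 42.1%, Crem at 31.4 to 38.8% and Atf1 at 20.9 to 28.2% of its sum. By the longest transcript the mean shares were 68.2% for Sik3, 22% for Sik2 and 9.79% for Sik1, 68.1% for Crtc1, and 42.2% for Crem ahead of 38.5% for Creb1 and 19.3% for Atf1.

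**Figure D3:**
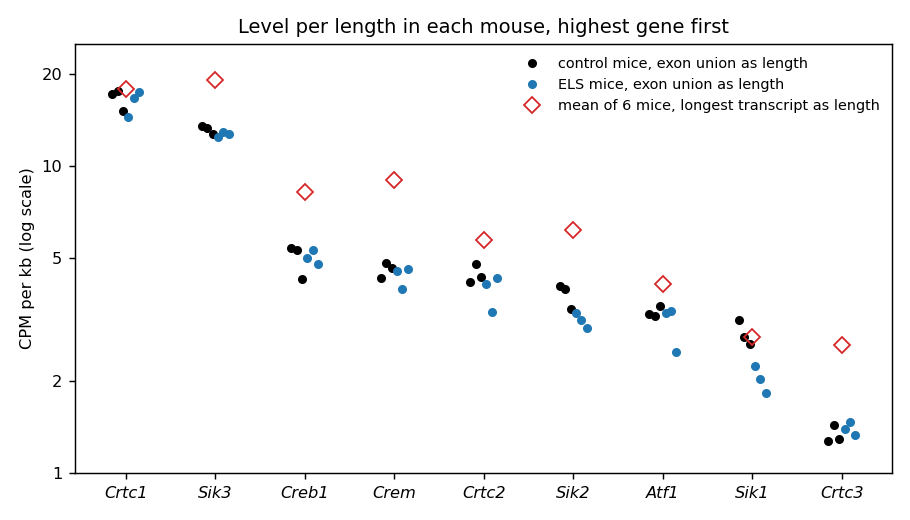
Dots give the level of each gene in each mouse in CPM per kb of exon union on a log axis (black, control mice; blue, ELS mice), and open red diamonds the mean of 6 mice with the longest transcript as length. Crtc1 and Sik3 lie above 10 CPM per kb by either length, and all other genes below it.

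Genes around this axis were examined in 7 lists, 113 genes in all, of which 111 passed the filter. Nuak2 and Atf3 did not, with mean levels of 0.634 and 0.489 CPM. The quasi-likelihood test called 0 of the 111 genes, DESeq2 called 5 and the likelihood ratio test 6, all of them CREB target genes, while 21 had an unadjusted p under 0.05 in the quasi-likelihood test. Without control mouse 3 the quasi-likelihood test called 8 of these genes, and 29 over all genes. This mouse had the highest sums of striatal, oligodendrocyte (6210 CPM), astrocyte (1210 CPM) and blood (82.2 CPM) markers and the lowest of endothelial markers (104 CPM), and the part of these in the calls was not tested. The percentages of all genes tested given for the 9 genes apply here too.

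Upstream of the SIKs, the LKB1 complex and its other dependent kinases had 15 genes tested, with a median log2 fold change of -0.03, which ran from -0.0883 to -0.0152 with each mouse left out. One of them, Nuak1, had an unadjusted p under 0.05, with control and ELS means of 112 ± 15.2 and 95.9 ± 4.86 CPM (SD, n = 3 each). Without control mouse 3 Nuak1 was called, with a log2 fold change of -0.332 and an adjusted p of 0.0497 by edgeR quasi-likelihood. Stk11, the gene of LKB1, had a log2 fold change of -0.06. Brsk2 and Stradb, next by p, had log2 fold changes of -0.13 and -0.11, and the groups of both overlapped. With each mouse left out in turn these ran from -0.19 to -0.06 and from -0.148 to -0.063. In Prkaa1, which codes for a catalytic subunit of AMPK, all ELS mice (37.5 to 40.3 CPM) lay above all control mice (36.4 to 36.8 CPM). This pattern was shown by 1 of the 15 genes, against 3.81% of all genes tested.

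For cAMP signalling, 16 PKA and adenylyl cyclase genes had a median log2 fold change of 0.01, and from -0.028 to 0.0489 with each mouse left out. Of these, Adcy8 and Adcy9, both adenylyl cyclases, had an unadjusted p under 0.05, with log2 fold changes of -0.26 and -0.24, and Adcy1, next by p, had -0.16. With each mouse left out in turn, Adcy9 ran from -0.36 to -0.15 and Adcy1 from -0.246 to -0.067. All ELS mice lay under all control mice in Adcy8, and above them in Pkib, the gene of a PKA inhibitor (10.4 to 11.2 CPM in control and 11.3 to 12.5 CPM in ELS mice), and Adcy5 (189 to 193 and 197 to 203 CPM). The lower pattern was thus shown by 1 of the 16 genes and the higher by 2, against 4.47% and 3.81% of all genes tested. In this list 9 of the 16 log2 fold changes were above 0. The 12 phosphodiesterase genes, which break down cyclic nucleotides, had a median of -0.01, and from -0.0545 to 0.0261 with each mouse left out. Pde7b alone among them had an unadjusted p under 0.05, on the higher side, with control and ELS means of 39.1 ± 1.87 and 44.2 ± 3.02 CPM (SD, n = 3 each). Pde4b and Pde4d had log2 fold changes of 0.14 and -0.16, which ran from 0.073 to 0.215 and from -0.236 to -0.08 with each mouse left out.

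On the calcium side, 14 calcineurin and CaM kinase genes had a median log2 fold change of -0.02, which was 0.0193 without ELS mouse 1 and -0.0697 without ELS mouse 2. Camk1g, a CaM kinase I, and Camkk1, a kinase that activates CaM kinases, were lower in every ELS mouse than in every control mouse. This pattern was shown by 2 of the 14 genes, against 4.47% of all genes tested. Camk1g had control and ELS means of 34.7 ± 1.68 and 29.6 ± 3.04 CPM, and Camkk1 had 134 ± 5.88 and 120 ± 0.962 CPM (SD, n = 3 each). Rcan1, a calcineurin regulator that calcineurin signalling induces, had a log2 fold change of -0.07, which was -0.131 without control mouse 2 and -0.024 without control mouse 3. Neither gene was called by the quasi-likelihood test or by DESeq2.

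Among other SIK substrates and 14-3-3 genes, 13 in all with a median log2 fold change of 0.02 that ran from -0.0151 to 0.0346 with each mouse left out, the class IIa histone deacetylases Hdac4, Hdac5 and Hdac7 had log2 fold changes below 0 and Hdac9 one above 0. In Hdac4 and Hdac5 all ELS mice lay under all control mice, a pattern of 2 of the 13 genes, against 4.47% of all genes tested. In Hdac4 the separation was slight, with control mouse 3 and ELS mouse 2 both at 67.4 CPM after rounding. Hdac9 had control and ELS means of 51.3 ± 4.91 and 59.5 ± 4.63 CPM, and Hdac4 had 71.8 ± 4.78 and 62.0 ± 9.11 CPM (SD, n = 3 each). The log2 fold change of Hdac4 was -0.21, and -0.095 without ELS mouse 1. Hdac7 had a log2 fold change of -0.16, which was 0.003 without control mouse 2 and -0.299 without control mouse 3. The 14 other CREB and ATF factors and coactivators had a median of -0.01, and from -0.06 to -0.0202 with each mouse left out. Creb5, a weakly expressed CREB/ATF gene, was higher in every ELS mouse, with control and ELS means of 4.14 ± 0.866 and 6.11 ± 0.792 CPM (SD, n = 3 each). Its log2 fold change was 0.57 (standard error 0.174), with an adjusted p of 0.91 by edgeR quasi-likelihood. In Crebl2 all ELS mice lay under all control mice. Either pattern was shown by 1 of the 14 genes, against 4.47% of all genes tested for the lower and 3.81% for the higher. Atf7 and Creb3l2 had log2 fold changes of -0.22 and -0.19.

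The 27 CREB target genes of neurons had a median log2 fold change of -0.24. Of these, 12 had an unadjusted p under 0.05, all on the lower side, and 8 had every ELS mouse below every control mouse, but 0 passed the call rule of the quasi-likelihood test. DESeq2 called 5, namely Npas4, Nr4a1, Per2, Fos and Arc. These were already known as DEGs of these same mice when the list was drawn up, so they are no independent evidence of a direction. The median was -0.14 without control mouse 1 and -0.13 without control mouse 2. Without these 5 genes the median of the remaining 22 was -0.02. Of the 22, 7 had an unadjusted p under 0.05 on the lower side, against 2.34% of all genes tested. The whole list was drawn up with earlier results of these data known, so these 7 are no independent evidence either. Those 7 were Egr1, Dusp1, Junb, Nr4a3, Egr2, Fosb and Per1, immediate early genes apart from the clock gene Per1. Egr1, at -0.70, was called by the likelihood ratio test (adjusted p = 0.00284) and with the replicate block, but not by DESeq2. Without control mouse 3 both Egr1 and Per1 were called. Npas4, an activity-dependent transcription factor, had the largest log2 fold change of -1.64 (standard error 0.253), with an adjusted p of 0.111 by edgeR quasi-likelihood. In the same test its adjusted p was 0.00537 with no filter on low counts, 0.0101 with the replicate block and 0.000235 without control mouse 3, and over all alternatives and tests it ran from 3.39e-07 to 0.446. Per2, a clock gene, had -0.66 and Nr4a1, an orphan nuclear receptor, -0.46. Nr4a1 had 82.9, 73.3 and 69.3 CPM in control mice 1 to 3 and 52.2, 59.8 and 51.4 CPM in ELS mice 1 to 3. Other targets had fold changes near 0 on the log2 scale, among them Bdnf (0.06), Scg2 (0.03), Vgf (0.02), Crh (0.00), Sst (0.00) and Homer1 (-0.03).

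**Figure D4:**
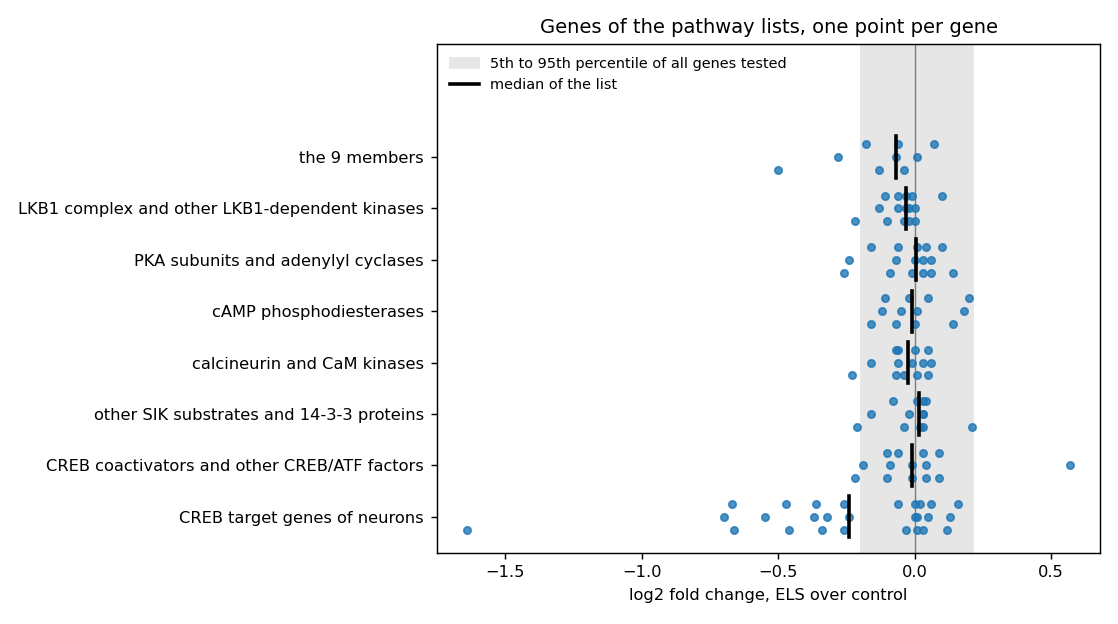
Each point is the log2 fold change of 1 gene, ELS over control mice, in the 9 genes and the 7 lists, with black bars for the list medians and a grey band for the 5th to 95th percentile of all genes tested. The medians lie between -0.07 and 0.02, except that of the CREB target genes at -0.24 (-0.02 without the 5 genes known as DEGs), where the points stretch to -1.64.

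The pattern of Sik1 over the 6 mice was set beside that of 11368 genes with a mean of at least 5 CPM. Likeness was the root mean square difference between log2(CPM + 1) values centred on each gene's mean, so that 0 is an identical pattern, and the median over these genes was 0.266. The 10 nearest genes, from 0.0902 to 0.111, were Ptgs2, Irs2, Nr4a1, Bcl6, Egr4, Sik2, Runx1t1, Lrfn2, Bhlhe40 and Zbtb40. Sik2 was thus sixth of 11368, at 0.11, on values that keep the gap between the groups by which Sik1 was chosen. The other members lay further off, with Atf1 620th, Sik3 1509th, Crtc2 1847th, Crem 3732nd, Creb1 4741st, Crtc1 6209th and Crtc3 8281st.

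Ptgs2, the gene of cyclooxygenase 2 and the nearest of all, had 19.7, 15.9 and 15.8 CPM in control mice 1 to 3 and 15.8, 13.2 and 11.8 CPM in ELS mice 1 to 3. Irs2, an insulin receptor substrate gene, had control and ELS means of 64.2 ± 9.81 and 50.1 ± 3.96 CPM (SD, n = 3 each). All 10 had a lower mean in ELS mice than in control mice, as Sik1 did, and Sik1 was chosen by that difference. When values were centred within each group, 0 of the 10 remained among the 10 nearest.

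**Figure D5:**
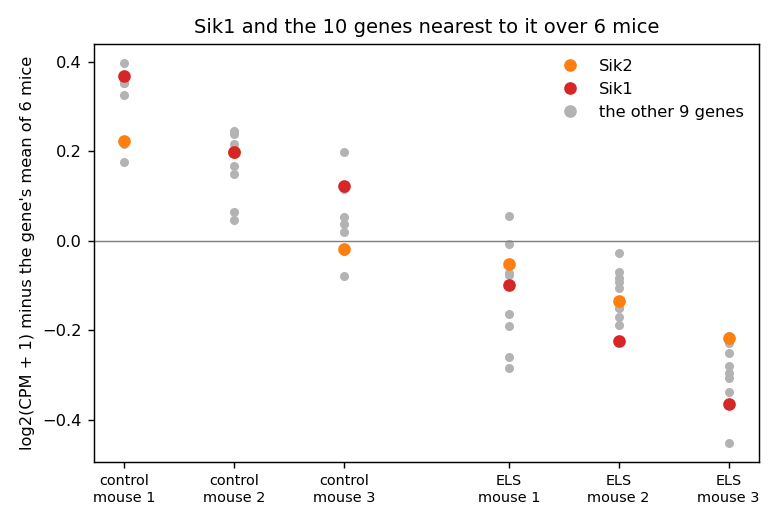
Values of log2(CPM + 1) minus the gene's mean over 6 mice are plotted for each mouse, with Sik1 in red, Sik2 in orange and the other 9 of the 10 nearest genes in grey. Points of Sik1 lie above 0 in the 3 control mice and below 0 in the 3 ELS mice, and those of Sik2 do so except in control mouse 3.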

How the data were processed

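The authors trimmed reads, aligned them to mm10 with STAR, and used HTSeq to count reads with a unique position. The table the authors deposited holds these raw counts by gene symbol, with a column for each mouse. The submitters' processing notes name STAR 2.7.1a and HTSeq 0.9.1, and the methods name another STAR version. The annotation release and the strand setting are not given in the sources used here, and the labels and the methods name different stranded library kits. Columns headed SI (social isolation) were assigned to ELS mice of equal number.

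The software was edgeR 4.0.16, DESeq2 1.42.0 and limma 3.58.1 under R 4.3.3. The filter kept a gene if either group had 1 CPM or more in each of its 3 mice. DEG thresholds followed the methods of the study, but the main test did not. The study called its DEGs with DESeq and also measured their expression by qPCR. A quasi-likelihood model with TMM factors and condition as its only term was fitted to all 13185 genes, with Benjamini-Hochberg adjustment of its p-values. The standard error of a log2 fold change is its size over the square root of F, and spreads are SDs. Lengths and coordinates come from GENCODE M21 on GRCm38, in which 89.2% of symbols were found, and promoters from RefSeq. The count tests were also run on simulated counts, drawn for each gene independently, and no result here rests on them. Differences that many genes of a mouse share, such as those of control mouse 3, were not simulated. The 9 genes had 245 to 6544 counts in a mouse, and counting error adds to the spread between mice in the less expressed ones. A further striatal marker is not reported here. The genes named are the 9 members, the 3 genes of smallest p in each list with those called, and the 10 nearest to Sik1; further list genes were named after their values were seen. The members and lists were chosen with earlier results of these data known. Alternatives were other tests, normalizations, filters and lengths, a replicate block, and each mouse left out. A planned comparison of protein sequences was not made.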

Additional observations from a re-analysis of the deposited data

How the results depend on the processing

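Leaving out 1 mouse at a time gave log2 fold changes of -0.573 to -0.418 for Sik1, -0.356 to -0.234 for Sik2, -0.087 to -0.041 for Sik3, -0.101 to 0.040 for Crtc1, -0.255 to -0.079 for Crtc2, 0.029 to 0.129 for Crtc3, -0.086 to 0.073 for Creb1, -0.115 to -0.007 for Crem and -0.210 to -0.005 for Atf1. Crtc1 turned positive without control mouse 2 or ELS mouse 1, and Creb1 negative without control mouse 3 or ELS mouse 2. As the groups did not overlap in Sik1 and Sik2, leaving out a mouse could not turn their direction.

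Calls depended on the test. Among all genes tested 2 were called, against 18 by DESeq2, 28 by likelihood ratio and 4 when no filter on low counts was used. Leaving out 1 mouse gave 1 to 29, with 29 arising without control mouse 3 and 1 without each other mouse. The cause was not tested. Of the 9 genes, 1 was called by the likelihood ratio test and 0 in every other alternative. In the 7 lists 0 genes were called, against 5 by DESeq2, 6 by likelihood ratio, 1 (Npas4) when no filter on low counts was used, and 0 to 8 when 1 mouse was left out, the 8 again without control mouse 3. A replicate block on the mouse number gave 7 calls among all genes and 4 in the lists (Fos, Egr1, Per2 and Npas4). Mice of equal number deviated from their group means with correlations of -0.164, 0.258 and -0.0355, and the labels do not say that the numbers pair the mice. The median of the 27 CREB target genes was -0.14 without control mouse 1 and -0.13 without control mouse 2, that of the 9 genes -0.1145 without control mouse 1, and that of the calcineurin list 0.0193 without ELS mouse 1 and -0.0697 without ELS mouse 2. The log2 fold change of Hdac7 was -0.16, reversed to 0.003 without control mouse 2 and -0.299 without control mouse 3.

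With the longest transcript as length, differences in level on the log2 scale reversed for Crtc1 over Sik3 (-0.10), Creb1 over Crem (-0.13) and Crtc2 over Sik2 (-0.11), since the exon union is longer than the longest transcript by a different factor in each gene. Those of Sik3 over Creb1 (1.22), Crem over Crtc2 (0.66), Atf1 over Sik1 (0.60) and Sik1 over Crtc3 (0.05) kept their direction with adjusted p above 0.05, as did Sik2 over Atf1 (0.58). No pair could pass by this length, since only 4 pairs reached the smallest p and the adjustment made it 0.0625 in the exact permutation test. With a mouse left out, differences in level ran from 0.32 to 0.37 for Crtc1 over Sik3, 1.32 to 1.38 for Sik3 over Creb1, 0.11 to 0.22 for Creb1 over Crem, 0.08 to 0.12 for Crem over Crtc2, 0.21 to 0.32 for Crtc2 over Sik2, 0.08 to 0.16 for Sik2 over Atf1, 0.35 to 0.48 for Atf1 over Sik1 and 0.72 to 0.89 for Sik1 over Crtc3. Of the 10 genes nearest to Sik1, 5 remained with a floor of 1 CPM and 0 with centring within groups.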
